A study of Mus musculus with 4 samples.

Results

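ATP-binding cassette (ABC) transporters are membrane pumps that use ATP to move lipids, bile salts, drug conjugates, peptides and metal-containing cofactors across membranes. The family was taken as every row of the deposited count table whose symbol is Abc, a subfamily letter from a to g, a number and at most 1 further letter. This rule found 50 genes among 49492 rows, and 44 of the 50 had enough counts to be tested. Gene expression was measured by RNA sequencing of whole testis from male C57BL/6J mice in 4 libraries, in 2 groups of 2. By the labels, all 4 libraries come from LPS-treated mice (lipopolysaccharide, an endotoxin of Gram-negative bacteria). The groups were a Spry1 knockdown made with the hairpin shSpry1, and wild-type testis with the hairpin shControl. The sources used here do not give the age of the mice, the vector, the cells it reached or whether replicates were separate animals. The p-values therefore measure the spread between these 4 samples only, and that spread may be technical.

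In the count table the columns carry the headings LPS and NC with a replicate number. NC was taken for shControl and LPS, by elimination, for shSpry1; no heading matches a title exactly, since LPS occurs in all titles. Should the headings stand for treated against untreated mice, all differences below describe that treatment instead. For this reason the text speaks of LPS columns and NC columns. Spry1 itself, an inhibitor of receptor tyrosine kinase signalling, was counted 26 and 17 times in the LPS columns and 45 and 41 in the NC columns (log2 fold change -0.82 ± 0.28, where the error is the standard error, SE; edgeR with Benjamini-Hochberg, BH, adjusted p = 0.0212). The Spry1 counts were known when the headings were read, so they are no independent check. The call was lost with DESeq2 and without LPS replicate 2, NC replicate 1 or NC replicate 2, and over 12 settings the adjusted p ranged from 0.0150 to 0.249. Libraries held 17612342 to 22451132 counts, and the family took 0.190% to 0.203% of them. Each of the 9 cell type marker lists had members detected in the tissue, and none had a member at 0 in all 4 libraries.

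In the testis, pumps of the endothelium, peritubular cells and Sertoli cells return drugs and conjugates towards the blood, which is part of the blood-testis barrier. P-glycoprotein (Abcb1a and Abcb1b), the breast cancer resistance protein (Abcg2) and the multidrug resistance-associated proteins of the Abcc subfamily are the best known of them. Cholesterol exporters such as Abca1 and Abcg1 load lipid onto apolipoproteins, and their genes are classic targets of the liver X receptors. Other members work inside the cell, in mitochondria, lysosomes and peroxisomes, while the E and F subfamilies have no membrane part and act on ribosomes.

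The promoters of the members with the largest rise and the largest fall among those called in all 12 settings are shown first, because these 2 genes carry the largest changes of the family that held in every setting. Both are the 250 bases before the transcription start in RefSeq (GRCm38.p6), minus strand, printed 5′ to 3′. Capitals mark matches on either strand to the TATA box TATAAA, the GC box GGGCGG, the E-box CACGTG, the nuclear receptor motif AGGTCA and 2 relaxed repeats of that motif. The relaxed direct repeat is GGTNA, 5 bases of any kind and GGTCA, after the arrangement with a 4-base spacing that liver X receptors bind. The relaxed inverted repeat is AGGNCA, 1 base of any kind and TGACCT, after the arrangement that the bile acid receptor binds. Both were relaxed with these 2 promoters in view, so that their presence is a description and nothing more.
Abca1, chr4:53159896-53160145: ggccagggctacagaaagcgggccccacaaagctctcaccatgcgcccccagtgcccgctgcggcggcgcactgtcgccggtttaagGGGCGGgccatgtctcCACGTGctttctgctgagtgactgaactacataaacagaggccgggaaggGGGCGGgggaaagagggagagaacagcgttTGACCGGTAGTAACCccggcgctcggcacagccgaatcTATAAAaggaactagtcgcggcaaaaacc
Abcb11, chr2:69342617-69342866: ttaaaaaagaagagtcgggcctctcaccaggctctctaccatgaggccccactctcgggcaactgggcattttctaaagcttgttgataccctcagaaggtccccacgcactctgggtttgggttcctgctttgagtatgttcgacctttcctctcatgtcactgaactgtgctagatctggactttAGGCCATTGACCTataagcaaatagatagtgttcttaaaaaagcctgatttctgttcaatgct

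In the Abca1 promoter the capitals are, in order, a GC box, an E-box, a second GC box, the relaxed direct repeat from -67 to -53 relative to the start, and a TATA box from -29 to -24. In the Abcb11 promoter they are the relaxed inverted repeat from -63 to -51, whose second arm is also a match to AGGTCA. The relaxed direct repeat was in 0.177% of the 32851 promoters of the same length and the relaxed inverted repeat in 0.0335%. Abca1 and Abcb11 were the respective single matches among 38 members with a promoter entry. Both matches were fixed in advance, as the repeats were relaxed with these promoters in view, so these shares are no test of the 2 promoters. The strict direct repeat, 2 copies of AGGTCA with 4 bases between them, was in 0.0152% of promoters and in 0 of the 38 members. TATAAA was in 12.4% of all promoters and in 5 members, GGGCGG in 32.7% and in 17, CACGTG in 6.02% and in 5, and AGGTCA in 14% and in 5. Members with no entry included Abca6, Abcb8, Abcc1, Abcc3, Abcc6, Abcc8, Abcd2, Abcd4, Abcg1 and Abcg4.

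The ABC genes moved in both directions, at a rate near that of all genes. Of 44 tested members, 7 were higher in the LPS columns, 6 were lower and 31 were not called at an adjusted p under 0.05 (quasi-likelihood test of edgeR, BH adjustment over all genes tested). The called share of 29.5% of the members stood beside 31.5% of all 20855 genes tested. By direction, 15.9% of the members were higher against 15.2% of all genes, and 13.6% were lower against 16.3%. The median log2 fold change was 0.06 over the tested members and 0.00 over all tested genes, and the median absolute log2 fold change was 0.291 against 0.218. CPM values (counts scaled to a common library size, after TMM) of the 2 groups did not overlap in 32 of the 44 members, or 72.7%, against 64.1% of all genes, and all 13 called members were among the 32. With library size as the only scaling the split became 9 higher and 5 lower, so that 64.3% of the family's calls were higher in place of 53.8%; over all genes, 20.2% were then higher and 12.4% lower. With DESeq2, 2 members were higher and 4 lower, beside 6.97% and 8.85% of all genes. Without LPS replicate 2, 3 members were higher, beside 10.4% of all genes, and without a filter on low counts 7 were higher and 6 lower, beside 9.22% and 9.52%. With the replicate number as a block 13 members were called, beside 33.4% of all genes.

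By its share of calls, the family thus did not stand out from all genes. Calls with a change of 1 log2 unit or more, up or down, made up 5.91% of all tested genes. Among the 44 tested members there were 3 such calls. The called members that rose were Abca1, Abca8b, Abcc3, Abcc2, Abcc5, Abcb8 and Abca5, and those that fell included Abcb11, Abca17, Abcb6, Abcf3 and Abce1. Of these, Abca1, Abcc3, Abcb11 and Abca17 were called in each of the 12 settings tried. The share of all genes called in every setting was not counted.

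**Figure D1:**
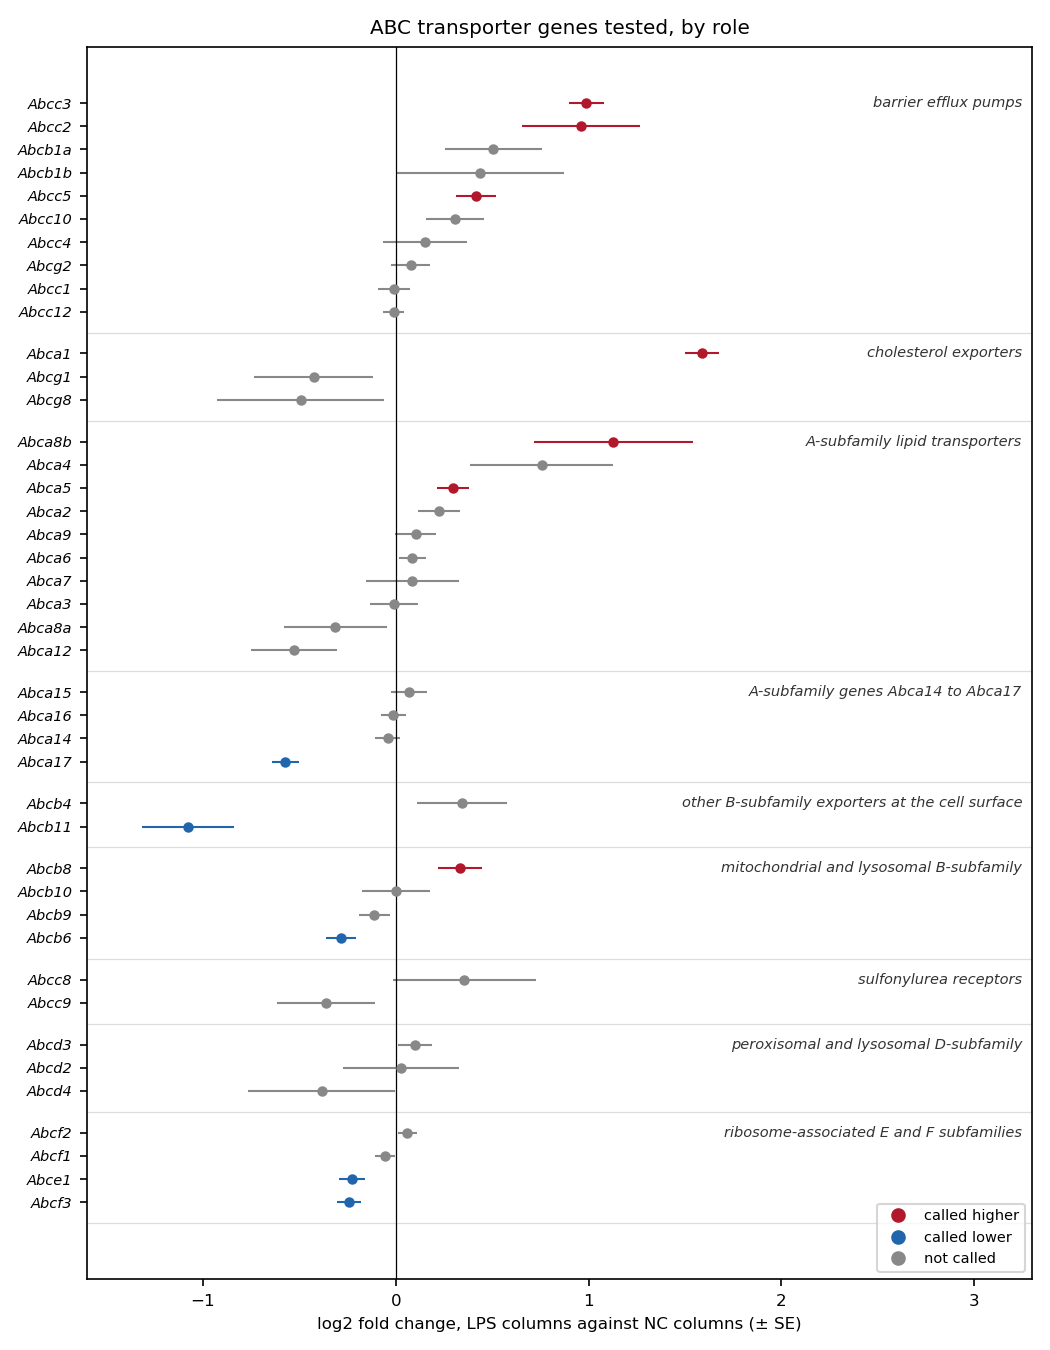
Log2 fold change of tested ABC transporter genes, LPS columns against NC columns, grouped by role. Points are the estimates and bars the standard errors, red for genes called higher, blue for lower and grey for not called. Abca1 lies farthest to the right, at 1.59, and Abcb11 farthest to the left, at -1.08.

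Among the efflux pumps of the testis barriers, 3 of 10 tested genes rose, 0 fell and 7 were not called. That called share lies near the 31.5% of all genes called, 15.2% higher and 16.3% lower. The 3 pumps that rose were Abcc3, Abcc2 and Abcc5, all of the multidrug resistance-associated group that exports glucuronide and glutathione conjugates and nucleotides. With DESeq2 the count of pumps that rose was 1, Abcc3, beside 6.97% of all genes. Without LPS replicate 1 it was 4, with Abcb1a added, and without LPS replicate 2 or NC replicate 1 it was 2, with Abcc2 lost. The summed level of the 11 pumps was 216 to 228 CPM in the LPS columns and 196 to 204 CPM in the NC columns. Most of this sum in every library was Abcc12, at 120 to 125 CPM, which was not called. The largest difference between group means was that of Abcc3, at 28.7 CPM in the LPS columns and 14.5 CPM in the NC columns. The sum is thus no measure of the pumps as a group.

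Abcc3 exports glucuronides and bile salts across the basolateral membrane of epithelia. Its level was 28.0 and 29.5 CPM in the LPS columns and 15.1 and 13.8 CPM in the NC columns. Both LPS libraries lay far above both NC libraries. The log2 fold change was 0.99 ± 0.09 (SE), which is 1.99 times the NC level (edgeR, BH-adjusted p = 4.37e-11), and it lay between 0.93 and 1.06 in all 12 settings. The gene (ENSMUSG00000020865.16) is on chromosome 11, from 94343295 to 94392997 in mm10.

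Abcc2 exports conjugates across the apical membrane. It had 31 and 38 counts, or 1.57 and 2.13 CPM, in the LPS columns and 15 and 25 counts, or 0.682 and 1.22 CPM, in the NC columns. The groups did not overlap, but the gap between them was smaller than the difference between the libraries within either group. The log2 fold change was 0.96 ± 0.31 (edgeR, BH-adjusted p = 0.0154). DESeq2 did not call it (adjusted p = 0.210). The call was also lost when LPS replicate 2 was left out, at a log2 fold change of 0.74 (adjusted p = 0.161), and when NC replicate 1 was, at 0.60 (adjusted p = 0.245). Abcc5, an exporter of cyclic nucleotides, rose less and more evenly, with 15.6 and 16.5 CPM against 11.6 and 12.4 CPM. Its log2 fold change was 0.42 ± 0.10 (edgeR, BH-adjusted p = 0.00189), and DESeq2 gave an adjusted p of 0.0519.

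The P-glycoprotein genes were low and were not called. Abcb1a, the form best known from endothelial barriers, was counted 39 and 50 times in the LPS columns and 42 and 29 in the NC columns, with means of 2.39 ± 0.58 and 1.66 ± 0.35 CPM (SD, n = 2 each). Its log2 fold change was 0.51 ± 0.25 with a 95% interval of -0.01 to 1.02 (edgeR, BH-adjusted p = 0.127), and it was called in 1 of 12 settings, without LPS replicate 1 (0.75, adjusted p = 0.0426). Abcb1b, the form best known from steroid-producing tissue, had 12 and 12 counts against 12 and 8. Its interval ran from -0.45 to 1.32 on the log2 scale, so that at this depth neither a rise to 2 times the NC level nor a fall could be told from no change. The pair shares sequence: 16.3% of the 50-base words in Abcb1a transcripts (GENCODE M21) also occur in Abcb1b, and 11.1% the other way, so some reads can be split between them and both values are uncertain to that extent. A gene model on the opposite strand, Gm42686, also overlaps 10.1% of the exon bases of Abcb1a.

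Abcg2, which exports sulfates and many drugs at the apical membrane, was close to even, with 14.5 and 14.6 CPM in the LPS columns and 14.0 and 13.6 CPM in the NC columns. Its log2 fold change was 0.08 with a 95% interval of -0.13 to 0.28 (edgeR, BH-adjusted p = 0.615). Abcc1, a broad exporter of glutathione conjugates found on basolateral membranes, had 24.2 and 26.6 CPM against 26.5 and 24.5 CPM, and the groups overlapped. Its interval was -0.18 to 0.16, and its sign changed with library size as the only scaling. Abcc12 was the most counted pump, with means of 122 ± 3.88 and 123 ± 2.79 CPM in the LPS and NC columns (SD, n = 2 each), with an interval of -0.13 to 0.10 and a sign that also changed with that scaling.

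The remaining pumps were low to moderate and not called. Abcc10, which transports lipophilic drugs, had 6.49 and 6.83 CPM against 5.91 and 4.82 CPM (log2 fold change 0.31 ± 0.15, edgeR, BH-adjusted p = 0.119). Abcc4, an exporter of cyclic nucleotides and prostaglandins, had 2.49 and 2.97 CPM against 2.41 and 2.49 CPM (0.15 ± 0.22, edgeR, BH-adjusted p = 0.644). Abcc6, which supports pyrophosphate release from cells, had 8 and 6 counts against 4 and 3, below the filter for testing.

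Endothelial cells, which carry several of these pumps, had markers that moved in both directions. Over all genes tested, 15.2% were higher and 16.3% lower, and with DESeq2 6.97% and 8.85%. Of 11 tested endothelial markers, 5 rose and 2 fell. With DESeq2 1 rose and 0 fell, without LPS replicate 2 it was 2 and 1, without NC replicate 1 4 and 0, and without NC replicate 2 3 and 2. Their summed level was 34.9 to 38.5 CPM in the LPS columns and 30.6 to 37.4 CPM in the NC columns. Of 14 Sertoli cell markers, 6 rose and 1 fell (0 fell with DESeq2, with library size alone and without LPS replicate 2 or NC replicate 2), with a summed level of 978 to 1012 CPM against 741 to 747 CPM. Of 7 peritubular myoid markers, 4 rose and 0 fell, with 382 to 391 CPM against 276 to 285 CPM. Each of these 2 sums was mostly 1 gene. Clu, of the Sertoli list, had means of 769 CPM in the LPS columns and 560 CPM in the NC columns. Myh11, of the myoid list, had means of 231 and 156 CPM. Of the Sertoli list, Wt1, Gata4, Dhh, Fshr and Inhbb were among those not called. In whole tissue, a change in the number of cells of a type and a change in RNA per cell cannot be told apart. The part of these cells in the levels of the pumps was not tested.

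**Figure D2:**
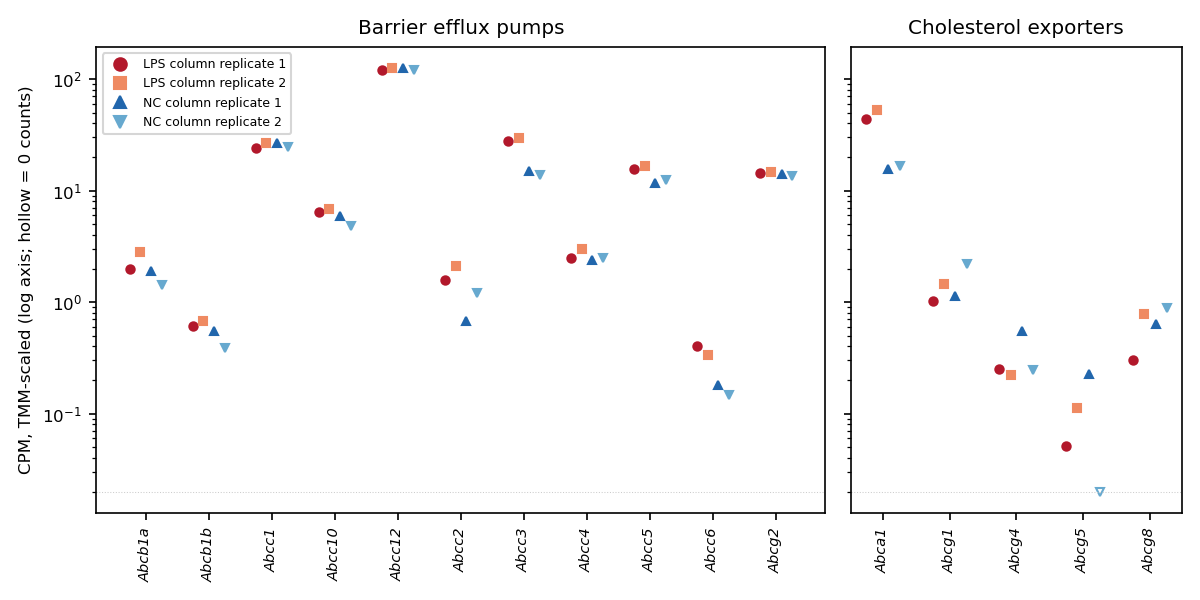
CPM of each library (log axis) for the 11 efflux pumps, left, and the 5 cholesterol exporters, right. Red and orange symbols are the LPS columns, blue symbols the NC columns, and a hollow symbol at the foot marks 0 counts, which occurred for Abcg5 in NC replicate 2. Abcc3 (28.0 and 29.5 against 15.1 and 13.8 CPM) and Abca1 (44.2 and 53.0 against 15.6 and 16.7 CPM) have both LPS libraries clearly above both NC libraries.

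Of the 5 cholesterol exporters, 1 rose and 0 fell, beside 15.2% of all genes higher and 16.3% lower. Another 2 were not called and 2 lay below the filter. The one that rose was Abca1, which passes cholesterol and phospholipid to lipid-poor apolipoprotein and is expressed in macrophages, Sertoli cells and Leydig cells among others. Its counts were 871 and 946 in the LPS columns and 344 and 342 in the NC columns, or 44.2 and 53.0 CPM against 15.6 and 16.7 CPM. Both LPS libraries lay far above both NC libraries, and the LPS pair differed more from each other than the NC pair did. The log2 fold change was 1.59 ± 0.09 (SE), 3.01 times the NC level (edgeR, BH-adjusted p = 3.69e-17), and it ranged from 1.45 to 1.72 over the 12 settings. Abca1 (ENSMUSG00000015243.4) is on chromosome 4, from 53030787 to 53159895 in mm10. Its promoter, printed above, holds the direct repeat that was relaxed with this promoter in view.

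None of the other exporters was called. Abcg1, which passes cholesterol to high-density lipoprotein, was counted 20 and 26 times in the LPS columns and 25 and 45 in the NC columns. The groups overlapped, and the highest value was in NC replicate 2. Its log2 fold change was -0.43 ± 0.31 with a 95% interval of -1.06 to 0.20 (edgeR, BH-adjusted p = 0.320), and without NC replicate 2 it was 0.11 (adjusted p = 0.889). Abcg8, a subunit of the sterol exporter of liver and gut, had 6 and 14 counts against 14 and 18 (log2 fold change -0.49 ± 0.43, edgeR, BH-adjusted p = 0.421), and without LPS replicate 1 its fold change was 0.059. Its partner subunit Abcg5, which lies head to head with it on chromosome 17 and overlaps it in 3.02% of its exon bases on the opposite strand, had 1 and 2 counts against 5 and 0. The ratio of the scaled counts of Abcg5, LPS over NC, was 0.679 with an exact binomial 95% interval of 0.105 to 3.49, which covers counting error only. Abcg4, a sterol exporter best known from brain, had 5 and 4 counts against 12 and 5.

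Of 18 tested regulators, acceptors and handlers of cholesterol, 2 rose, 3 fell and 13 were not called, a share near the 31.5% of all genes called, and the median log2 fold change was 0.05. The 2 that rose were Lipa and Npc1, while Npc2 of the same list was not called (0.13 ± 0.09, edgeR, BH-adjusted p = 0.266). Lipa, the lysosomal acid lipase, rose by 0.94 ± 0.24 on the log2 scale (edgeR, BH-adjusted p = 0.00238), and Npc1, which moves cholesterol out of lysosomes, rose by 0.59 ± 0.20 (edgeR, BH-adjusted p = 0.0193). DESeq2 called neither, with adjusted p values of 0.0891 and 0.224, and edgeR's call of Npc1 was also lost without LPS replicate 2 or NC replicate 1.

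Scarb1, the receptor that takes up cholesterol from high-density lipoprotein, had 526 and 509 counts against 1430 and 1289 and fell by 1.21 ± 0.07. Apoe, an acceptor of exported cholesterol, fell by 1.08 ± 0.06, with means of 106 ± 4.10 CPM in the LPS columns and 222 ± 9.62 CPM in the NC columns (SD, n = 2 each). Lpcat3, a phospholipid-remodelling enzyme and liver X receptor target, fell by 0.25 ± 0.08, which DESeq2 did not call (adjusted p = 0.122). Library size as the only scaling also ended that call, as did leaving out LPS replicate 2 or NC replicate 1. The liver X receptor genes were not called. Nr1h3 had a log2 fold change of 0.09 ± 0.14 (edgeR, BH-adjusted p = 0.691), and Nr1h2 one of 0.14 ± 0.07 (edgeR, BH-adjusted p = 0.155), which passed as higher in 2 of 12 settings. The acceptor gene Apoa1 had 1 and 3 counts in each group and was not tested.

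Markers of cells that express Abca1 moved beside it, where 15.2% of all genes were higher and 16.3% lower. Of 10 macrophage markers, 5 rose, 4 fell and 1 was not called, and their summed level was 68.0 to 77.4 CPM in the LPS columns and 53.6 to 57.5 CPM in the NC columns. Of 8 Leydig cell markers, 1 rose (0 with DESeq2 and without LPS replicate 2) and 5 fell, with a summed level of 452 to 522 CPM against 866 to 906 CPM. In that Leydig sum, Cyp17a1 had means of 45.3 CPM in the LPS columns and 249 CPM in the NC columns. Insl3, which was not called, had means of 200 and 211 CPM. The markers of Sertoli cells are given above. The part of each cell type in the level of Abca1 was not tested.

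**Figure D3:**
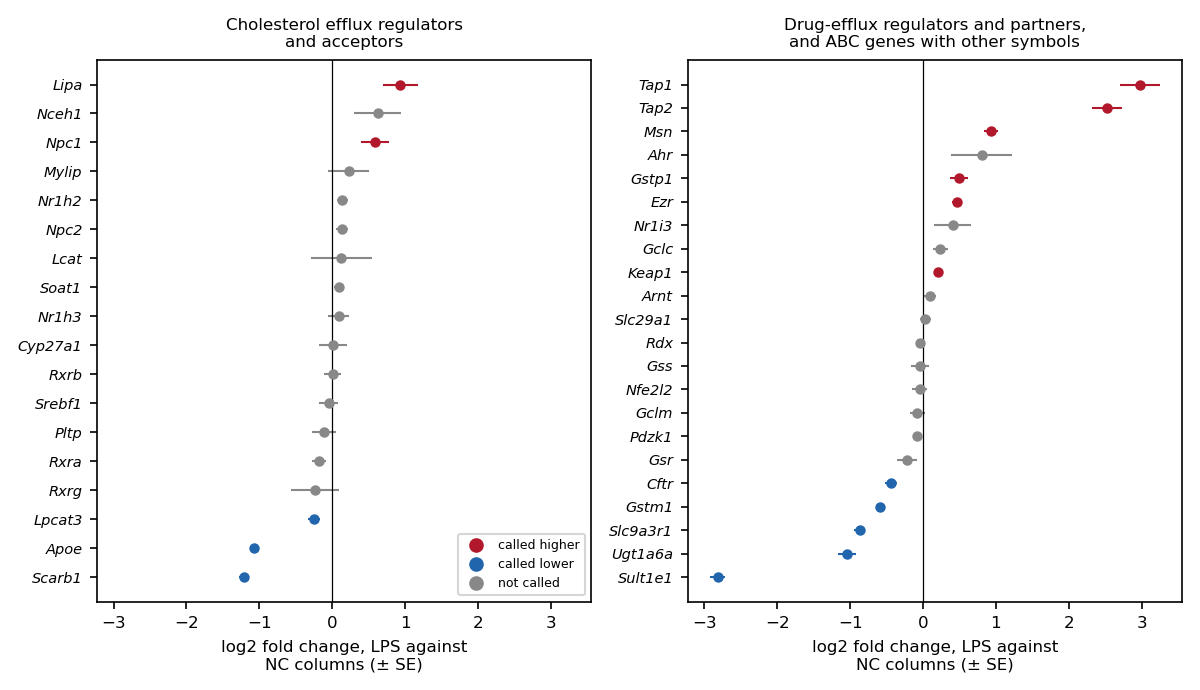
Log2 fold change (± SE), LPS columns against NC columns, of 18 tested cholesterol efflux genes, left, and of 19 tested drug-efflux regulators and partners with the 3 ABC genes that carry other symbols, right. Red genes were called higher, blue lower and grey not called. Scarb1 and Apoe lie lowest on the left, and Tap1 and Tap2 lie highest on the right.

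Of 19 tested regulators and partners of drug efflux, 4 rose, 4 fell and 11 were not called, beside 31.5% of all genes called. With DESeq2 2 rose and 4 fell. Among the enzymes that conjugate substrates for efflux, the oestrogen sulfotransferase gene Sult1e1 fell by 2.82 ± 0.10, the glucuronosyltransferase gene Ugt1a6a by 1.04 ± 0.12 and the glutathione transferase gene Gstm1 by 0.59 ± 0.06, while Gstp1 rose by 0.49 ± 0.13. Ugt1a6a and Gstm1 belong to families of closely related copies and are uncertain for that reason. Leydig cell markers fell beside these, 5 of 8, and their part was not tested. Of the proteins that anchor pumps at the membrane, Msn rose by 0.93 ± 0.10 and Ezr by 0.47 ± 0.07, and the scaffold gene Slc9a3r1 fell by 0.87 ± 0.08. The anchor gene Rdx and the scaffold gene Pdzk1, the highest of these in counts, were not called, at -0.03 ± 0.05 and -0.08 ± 0.05. Keap1, which restrains the stress factor Nrf2, rose by 0.21 ± 0.06. DESeq2 did not call Gstp1 or Keap1 (adjusted p = 0.0797 and 0.0659), and leaving out LPS replicate 1 or NC replicate 2 also ended the call of Keap1, with adjusted p of 0.0922 and 0.05005. Among the factors that regulate pump genes, Nfe2l2 and Ahr were not called, and Nr1i2 was not tested. Nfe2l2, which encodes Nrf2, was at -0.04 ± 0.10 (edgeR, BH-adjusted p = 0.794), and its sign changed with library size as the only scaling. Ahr was at 0.80 ± 0.41 (edgeR, BH-adjusted p = 0.140). The xenobiotic receptor gene Nr1i2 had 7 and 1 counts against 3 and 8.

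Of the A-subfamily genes other than Abca1 and the group from Abca14 to Abca17, 2 of 10 tested rose and 0 fell. Over all genes tested, 15.2% were higher and 16.3% lower. With DESeq2, 0 of the 10 rose, beside 6.97% of all genes. Many of these A-subfamily genes encode lipid transporters. The 5 neighbours lie in a row on chromosome 11, from 109932190 to 110337716 in mm10, in the order Abca8b, Abca8a, Abca9, Abca6 and Abca5, and their values differed. Abca5, at 29.3 and 31.1 CPM against 24.0 and 25.1 CPM, rose by 0.30 ± 0.08 (edgeR, BH-adjusted p = 0.00437), which DESeq2 did not call (adjusted p = 0.0673) and which was lost when LPS replicate 2 was left out (adjusted p = 0.0520).

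Abca8b had 22 and 15 counts against 13 and 6, with a log2 fold change of 1.13 ± 0.41 (edgeR, BH-adjusted p = 0.0337). DESeq2 did not call it (adjusted p = 0.314). The call was also lost in 3 of the 4 fits that left out a library: at 0.90 without LPS replicate 1 (adjusted p = 0.260), at 1.31 without LPS replicate 2 (adjusted p = 0.0504) and at 0.73 without NC replicate 2 (adjusted p = 0.342). In the remaining such fit, without NC replicate 1, the log2 fold change was 1.73. Abca8b was above the CPM cut of the filter in 3 libraries, both LPS columns and NC replicate 1, and below it in NC replicate 2. Gm11697 on the opposite strand overlaps part of its exons. Its neighbour Abca8a had 27 and 27 counts against 38 and 38 (log2 fold change -0.31 ± 0.27, edgeR, BH-adjusted p = 0.403). Abca6, the most abundant of the row at 41.8 and 44.2 CPM against 40.9 and 40.1 CPM, was not called (0.09 ± 0.07, edgeR, BH-adjusted p = 0.381), nor was Abca9 (0.10 ± 0.11, edgeR, BH-adjusted p = 0.497).

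The others of the subfamily were Abca2, Abca3, Abca4, Abca7 and Abca12, none of them called, and Abca13, which had 2 and 7 counts against 8 and 7 and was not tested. Abca12, a lipid transporter of skin, had 39 and 37 counts against 59 and 65. Its groups did not overlap, and its log2 fold change of -0.53 ± 0.22 missed the threshold (edgeR, BH-adjusted p = 0.0682). Abca4, the retinoid transporter of photoreceptors, had 23 and 16 counts against 13 and 13 (0.76 ± 0.37, edgeR, BH-adjusted p = 0.119).

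Abca14, Abca15, Abca16 and Abca17 were among the more abundant members of the family here. Abca17 fell, from 49.4 and 52.3 CPM in the NC columns to 34.4 and 33.9 CPM in the LPS columns. Both LPS libraries lay below both NC libraries, with a gap many times the spread within a group. Its log2 fold change was -0.57 ± 0.07, or 0.672 of the NC level (edgeR, BH-adjusted p = 4.73e-08), and it ranged from -0.61 to -0.51 over the 12 settings. Abca17 lies on chromosome 17, from 24264259 to 24351029, next to Abca3.

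The other 3 lie side by side on chromosome 7, from 120203961 to 120544813, and overlapped between groups. Abca14 had 55.6 and 58.0 CPM against 56.8 and 60.1 CPM, with a 95% interval of the log2 fold change of -0.17 to 0.09. Abca16 had 53.5 and 56.0 CPM against 54.8 and 55.6 CPM, with an interval of -0.15 to 0.12. Abca15 had 19.7 and 18.5 CPM against 18.9 and 17.6 CPM, with an interval of -0.12 to 0.26. For the germ cell markers that follow, the shares over all genes were 15.2% higher and 16.3% lower. Among 9 round spermatid markers, 1 rose and 6 fell, with a summed level of 1536 to 1592 CPM against 1625 to 1649 CPM. The count of 6 was 2 with library size as the only scaling, and 3 with DESeq2 or without LPS replicate 2, NC replicate 1 or NC replicate 2. Of 12 elongating spermatid markers, 0 rose and 8 fell, with 27123 to 27214 CPM against 34918 to 35643 CPM. Odf2, with means of 9314 and 10976 CPM, and Prm2, with 6503 and 10485 CPM, weighed most in that sum. Of 10 spermatocyte markers, 1 rose and 2 fell, and of 7 tested spermatogonia markers 3 rose and 0 fell. The 3 became 1 with DESeq2 or without NC replicate 1, and the 2 spermatocyte markers that fell became 1 with DESeq2 or without LPS replicate 2. The part of germ cells in the fall of Abca17 was not tested.

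Of the other cell-surface exporters of the B subfamily, Abcb11 fell. It encodes the bile salt export pump, known from the canalicular membrane of hepatocytes. It was counted 31 and 27 times in the LPS columns and 84 and 55 in the NC columns, or 1.57 and 1.51 CPM against 3.82 and 2.68 CPM. The groups did not overlap, and NC replicate 1 was the highest library. The log2 fold change was -1.08 ± 0.24, or 0.475 of the NC level (edgeR, BH-adjusted p = 0.000582). It was called in each of the 12 settings, with the fold change between -1.30 without NC replicate 2 and -0.79 without NC replicate 1. Abcb11 (ENSMUSG00000027048.15) is on chromosome 2, from 69238282 to 69342616 in mm10, and 2 gene models on the opposite strand, Gm13613 and Gm13614, overlap its exons, the larger overlap covering 2.64% of its exon bases.

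Abcb4, the phosphatidylcholine exporter, lies beside Abcb1a and Abcb1b on chromosome 5 and had 45 and 48 counts against 40 and 43 (log2 fold change 0.34 ± 0.23, edgeR, BH-adjusted p = 0.281). Abcb5 had 1 and 6 counts against 2 and 0 and was not tested. The ratio of its scaled counts, LPS over NC, was 3.96 with an exact binomial 95% interval of 0.754 to 39.1. A count of 0 in NC replicate 2 allows up to 0.142 CPM of the library total before TMM scaling, taking 3 counts as the floor.

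Of the mitochondrial and lysosomal members of the B subfamily, Abcb8 rose and Abcb6 fell. Abcb8, of the mitochondrial inner membrane, had 11.8 and 13.1 CPM against 9.63 and 10.1 CPM and rose by 0.33 ± 0.11 (edgeR, BH-adjusted p = 0.0230), which DESeq2 did not call (adjusted p = 0.216). Leaving out LPS replicate 2 or NC replicate 1 also ended the call, with adjusted p of 0.183 and 0.116. Abcb6, a porphyrin transporter, had 31.1 and 32.1 CPM against 36.4 and 40.7 CPM and fell by 0.29 ± 0.08 (edgeR, BH-adjusted p = 0.00392), which DESeq2 did not call (adjusted p = 0.0551) and which was lost when NC replicate 2 was left out (adjusted p = 0.122). The value of Abcb6 is uncertain, because a gene model on the same strand, Gm29253, covers 55.2% of its exon bases. Abcb10, which supports haem synthesis, and Abcb9, a lysosomal peptide transporter, had log2 fold changes of 0.00 ± 0.18 and -0.11 ± 0.08 and were not called.

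The D subfamily brings fatty acids into peroxisomes and cobalamin out of lysosomes, and Abcd2, Abcd3 and Abcd4 were not called. Abcd2 had 21 and 32 counts against 35 and 24, and the groups overlapped. Abcd3 and Abcd4 had log2 fold changes of 0.10 ± 0.09 and -0.39 ± 0.38.

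The sulfonylurea receptors, which are not pumps but regulate potassium channels, were not called. Abcc8 had 19 and 15 counts against 13 and 17 (log2 fold change 0.36 ± 0.37), and Abcc9, known from vascular smooth muscle and pericytes, had 29 and 30 counts against 48 and 38 (-0.36 ± 0.26).

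The E and F subfamilies gave the highest levels and small changes. Per length of the gene row (RPKM, the CPM divided by the length in kilobases), Abcf1, which acts in translation initiation, was highest of the 50 at 181 ± 7.28 in the LPS columns and 189 ± 0.95 in the NC columns (SD, n = 2 per group). Abcf2 followed at 137 ± 2.99 and 132 ± 1.89 RPKM, and every other member was far below both, with Abcf3 next at 18.5 ± 1.35 and 21.8 ± 0.56 RPKM. Abcf1 alone held 41.0% to 42.7% of the family's counts. Neither Abcf1 (log2 fold change -0.06 ± 0.05) nor Abcf2 (0.06 ± 0.05) was called.

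Abcf3 and Abce1, a ribosome recycling factor, fell. Abcf3 had 62.3 and 69.1 CPM against 76.3 and 79.1 CPM and fell by 0.24 ± 0.06 (edgeR, BH-adjusted p = 0.00323), a call that DESeq2 also made and that was lost without LPS replicate 1 (adjusted p = 0.0967). Abce1 had 55.3 and 58.8 CPM against 62.9 and 70.6 CPM and fell by 0.23 ± 0.07 (edgeR, BH-adjusted p = 0.00862). In 4 of 12 settings Abce1 was not called. These were DESeq2 (adjusted p = 0.0729), scaling by library size alone (0.0593), and the fits that left out LPS replicate 1 (0.0828) and NC replicate 2 (0.235).

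Below the F subfamily, the order per length over the mean of all 4 libraries ran from Abcc12 at 18.5 RPKM through Abce1, Abca14, Abca17, Abca6 and Abca16. In the LPS columns alone Abca14 was above Abce1, and Abca6 and Abca16 were above Abca17. In the LPS columns the libraries of Abcf3 and Abcc12 overlapped, while in the NC columns Abcf3 was higher. Abce1 and Abca14 overlapped over the 4 libraries, and Abca17, Abca6 and Abca16 lay within 6.37 to 9.83 RPKM in every library. In all, 26 of the 50 members had a mean under 1 RPKM, among them Abcb1a, Abcb1b, Abcb11, Abcg1 and Abca8b. Abca1 rose from 1.56 ± 0.07 to 4.69 ± 0.60 RPKM. The rodent gene Abcg3 had 7 and 9 counts against 6 and 8 and was not tested.

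**Figure D4:**
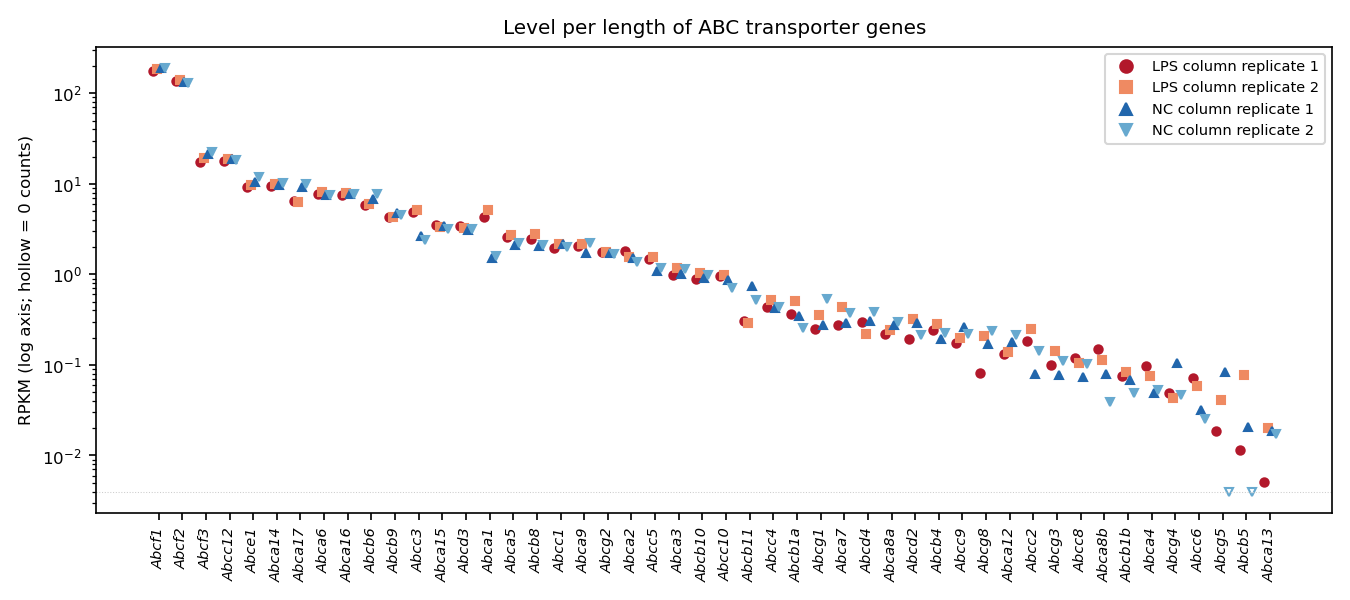
RPKM (log axis) of each library for ABC transporter genes, ordered by their mean over 4 libraries. Red and orange symbols are the LPS columns, blue symbols the NC columns, and a hollow symbol marks 0 counts. Levels span from 185 RPKM for Abcf1 to 0.0152 RPKM for Abca13.

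The 3 ABC genes of the list that carry other symbols fell outside the rule, and all 3 were called. Tap1 and Tap2, which form the peptide transporter of MHC class I antigen presentation, rose. Tap1 had 97 and 99 counts against 21 and 7 (log2 fold change 2.98 ± 0.27) and Tap2 had 124 and 131 counts against 26 and 24 (2.52 ± 0.21). Both rises were larger than that of any called member. Cftr, the epithelial chloride channel, fell by 0.44 ± 0.08, with means of 22.7 ± 1.10 CPM in the LPS columns and 30.7 ± 1.61 CPM in the NC columns (SD, n = 2 each), and all 3 were called in each of the 12 settings.

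**Figure D5:**
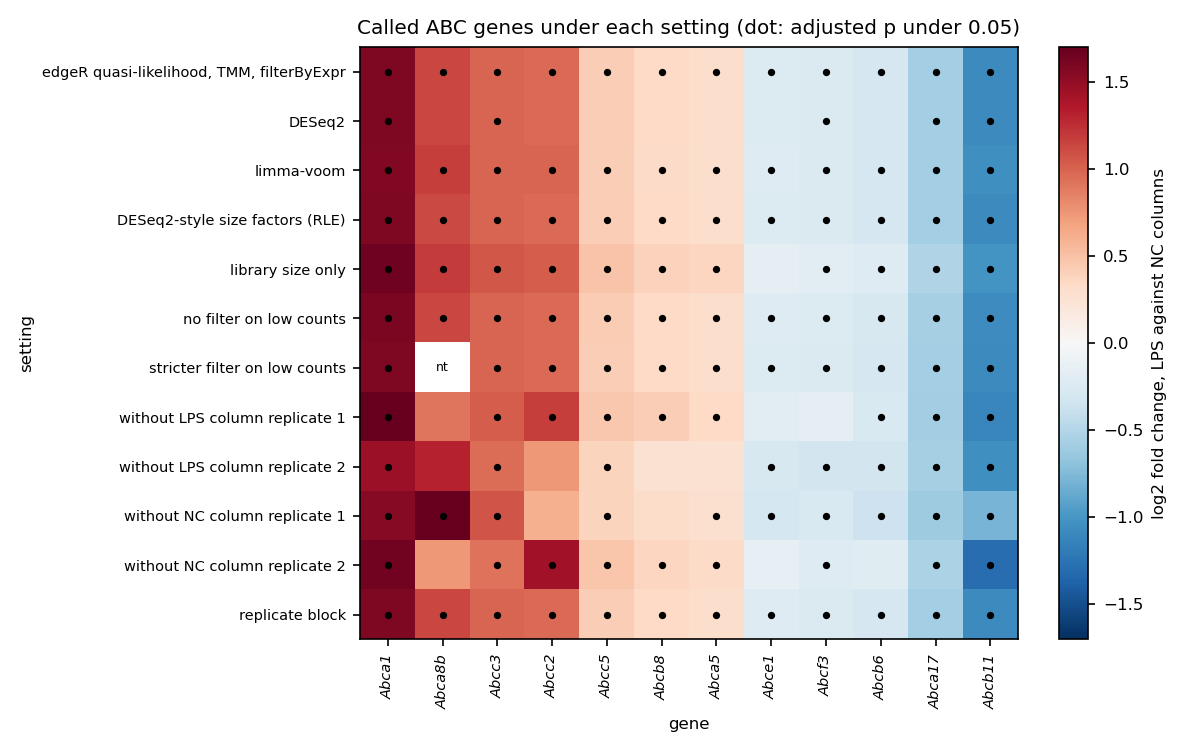
Log2 fold change of called ABC genes (columns) under each of the 12 settings (rows), with red for higher and blue for lower in the LPS columns. A dot marks an adjusted p under 0.05, and nt marks a gene that did not pass the stricter filter. Abca1, Abcc3, Abca17 and Abcb11 have a dot in every row, and no gene changes colour.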

How the data were processed

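The deposited file holds raw read counts per gene in 4 columns, beside coordinates and gene length in bases, in the layout that featureCounts writes. The submitters' processing notes list DESeq, edgeR 3.12.1, Subread 1.5.1 with featureCounts, STAR 2.5.3a, Trimmomatic 0.36 and the build mm10, without roles. The strand setting of the counting is not stated, so overlapping genes on opposite strands cannot be told apart. Per the labels' protocols, TRIzol extraction was followed by a stranded mRNA kit.

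After filterByExpr and TMM scaling, edgeR 4.0.16 fitted the quasi-likelihood model to 20855 genes, with p-values adjusted by Benjamini-Hochberg and genes called at an adjusted p under 0.05. Standard errors and 95% intervals come from the quasi-likelihood F statistic. The filter removed 6 members, and 3 (Abca8b, Abcb1b and Abcg8) were above its CPM cut in both libraries of 1 group only. Replicates differed by more than sampling noise (chi-square per degree of freedom 2.31 and 2.20). RPKM used the deposited gene length in bases. The 12 settings are this fit and 11 alternatives: DESeq2 1.42.0, limma-voom (limma 3.58.1), other scalings and filters, each library left out, and the replicate number as a block. The edgeR fit was also run on counts simulated from its own dispersions, with 200 genes changed. That is a far smaller share than the 31.5% of genes called here, so the simulation is no check of these calls. Gene identifiers come from GENCODE M21 (46 of 50 members matched by coordinates), and promoters from RefSeq (38 of 50).

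The members and lists were chosen with earlier results of these data known. Genes were named by rule: every pump and cholesterol exporter, every other member that was called or not tested, and in the further lists the 3 called genes with the largest change and the uncalled regulators and partners of named members. Beyond this rule, the uncalled members outside those 2 groups were named after their values were seen. So were Npc1, Npc2, Lpcat3, Gstm1, Slc9a3r1, Gstp1, Ezr and Keap1. The values of 2 members are not reported here, although the counts over the family include them.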

Additional observations from a re-analysis of the deposited data

How the results depend on the processing

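With DESeq2 the number of genes called was 1454 higher and 1845 lower, in place of 3169 and 3394, the number of ABC members higher was 2 in place of 7, and that of pumps higher was 1 in place of 3. Leaving out 1 library at a time gave 3 to 7 members higher, the lowest without LPS replicate 2, and 4 to 6 lower, with 2 to 4 pumps higher (4 without LPS replicate 1). In each of these fits fewer genes were called in both directions over the whole table as well, so the change is not read as particular to the family. These fits moved the members' median log2 fold change from -0.042 (without LPS replicate 2) to 0.10. Library size as the only scaling moved it to 0.13, from 0.06. The cause was not tested. The other counts over all genes, members, pumps and cholesterol exporters stayed within 1.5 times.

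Values near 0 changed sign. With library size as the only scaling, Abcc1 was at 0.055, Abcc12 at 0.052 and Nfe2l2 at 0.019. Over the fits without 1 library, Abcc1 ran from -0.073 to 0.059, Abcc12 from -0.042 to 0.022, Abcg1 from -0.83 to 0.11 and Abcg8 from -1.29 to 0.059. None of these was called. Abca3, Abca7, Abca9, Abca14, Abca16, Abcb10, Abcd2 and Abcf1, none of them called, also changed sign in at least 1 setting. Of the values of the named genes under alternatives, 421 kept direction and call, 36 lost the call, 3 gained it and 9 changed sign. Those counts leave aside the uncalled members outside the pumps and cholesterol exporters, and Npc2, Rdx, Pdzk1 and the cell type markers.

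The replicate numbers are shared by both groups, but deviations of same-numbered libraries had a correlation of 0.0155, so they do not show a pairing. With the replicate number as a block, 7 members were higher, 6 lower and 3 pumps higher, and no call changed for the pumps, the cholesterol exporters, the called members or the cholesterol and drug efflux genes named. Sertoli markers higher went from 6 to 7 and macrophage markers higher from 5 to 6. Over all genes 3376 were higher and 3594 lower. Counts of 12 or fewer per library limit Abcb1b, Abcb5, Abcc6, Abcg3, Abcg4, Abcg5 and Abca13.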
